A study of Mus musculus with 4 samples.

Results

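The genes of the proteasome were compared between skin of K5-IKKbeta transgenic mice and wild type skin. Members were all genes whose symbol is Psma, Psmb, Psmc, Psmd or Psme followed by a number and that had a probe set annotated to that symbol alone. They came to 42 of 18194 genes on the array, and each was represented by its brightest probe set. The immune group was set as 5 genes, Psmb8, Psmb9, Psmb10, Psme1 and Psme2. Psme2 had no probe set with its symbol alone and was not analysed here, which left 4 immune and 38 standard genes. Affymetrix arrays, 4 in all, gave expression in back skin, with 2 arrays for each genotype. The mice were males aged 32 days of a C57BL6 X DBA2 background, and each array held RNA pooled from 3 mice of a genotype. The transgene places IKKbeta under keratin K5 regulatory elements, which act in basal keratinocytes of epidermis and hair follicles, while the RNA is from whole skin.

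The proteasome is the protease that degrades ubiquitin-tagged proteins in the cytosol and nucleus. Its core is a stack of alpha and beta rings, and a regulatory particle, made of a base with ATPases and a lid, sits on the core and feeds it substrates. Leukocytes, and other cells exposed to interferon-gamma, replace the catalytic beta subunits Psmb6, Psmb7 and Psmb5 by Psmb9, Psmb10 and Psmb8, and can cap the core with the PA28 activator built from Psme1 and Psme2. The resulting immunoproteasome is known for supplying peptides to MHC class I molecules.

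The bases before the annotated starts of Psmb8 and Psmb9 and of Psmb5, the standard counterpart of Psmb8, are shown because these genes differed in their response, as described below. The window before Psmb9 is at the same time the window before the peptide transporter gene Tap1, which is transcribed in the opposite direction from a start 225 bases away. Sequences are from RefSeq (build GRCm38.p6), 5′ to 3′ on the strand of the named gene, ending at the base before its start, with capitals marking matches on either strand to 4 motifs searched. They lie at chr17:34197945-34198194 (plus strand) for Psmb8, chr17:34187331-34187555 (minus) for Psmb9 and chr14:54617996-54618245 (minus) for Psmb5.
Psmb8: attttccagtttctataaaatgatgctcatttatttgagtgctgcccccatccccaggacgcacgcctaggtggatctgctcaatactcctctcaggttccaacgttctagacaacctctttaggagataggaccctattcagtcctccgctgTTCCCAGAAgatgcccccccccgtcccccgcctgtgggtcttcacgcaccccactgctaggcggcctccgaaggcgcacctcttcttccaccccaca
Psmb9: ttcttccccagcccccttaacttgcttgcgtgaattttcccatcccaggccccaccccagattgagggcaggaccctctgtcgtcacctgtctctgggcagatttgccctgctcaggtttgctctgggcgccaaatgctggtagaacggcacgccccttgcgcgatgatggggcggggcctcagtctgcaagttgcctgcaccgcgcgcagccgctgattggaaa
Psmb5: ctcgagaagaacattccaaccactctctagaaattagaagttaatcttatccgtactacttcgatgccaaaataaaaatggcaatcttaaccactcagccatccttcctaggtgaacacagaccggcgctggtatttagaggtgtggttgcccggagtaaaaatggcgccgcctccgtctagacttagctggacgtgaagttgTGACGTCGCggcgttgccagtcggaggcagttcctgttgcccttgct

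The motifs were the gamma-activated site (TTCNNNGAA), the core of the interferon-stimulated response element (GAAANNGAA), the kappaB site and the core of the antioxidant response element (TGACNNNGC), searched on both strands in the 250 bases before each start of the RefSeq promoter table. For 8 of 35 members with a window that start lies inside the gene's span in the RefSeq gene table, by 1 to 14603 bases, so part or all of the window is then within the gene. The Psmb8 window held a gamma-activated site, TTCCCAGAA, 97 to 89 bases before the start. The motif was in none of the other 3 immune windows (Psmb9, Psmb10 and Psme1) and in 0 of 31 standard genes with a window, against 7.02% of 32851 windows of all genes. Matches to the antioxidant response element, the site type through which Nfe2l1 activates proteasome genes, included 1 in the window of Psmb5 (TGACGTCGC, 47 to 39 bases before the start). This motif was in 5 of 31 standard genes, 4 when bases inside the gene are left out, and in 0 of 4 immune genes, against 10.2% of all windows. The core of the interferon-stimulated response element was in 3 of 31 standard and 0 of 4 immune genes (7.13% of all windows), and the kappaB site in 6 of 31, or 5 with bases inside the gene left out, and 0 of 4 (7.25%). Other forms of the interferon and kappaB motifs had been searched before, and the forms given here were settled after those matches had been seen. The kappaB count depends on the form. With its purine and pyrimidine positions left free the site was in 45.8% of all windows, in 2 of 4 immune genes (Psmb9 and Psme1) and in 17 of 31 standard genes (14 with bases inside the gene left out), so neither count is a result about the members. A match is a description of letters, and a window without matches says nothing of the factors.

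Array medians over all 45101 probe sets were 6.91 to 6.96 (log2). Of the 5 probe sets for Ikbkb, the gene of the transgene, 3 were higher in K5-IKKbeta skin; the probe set with the largest difference read 6.50 and 6.54 in wild type and 8.77 and 8.74 in K5-IKKbeta skin (limma adjusted p = 0.000101 over all probe sets). Where its probe sets lie relative to the transgene was not analysed here. Keratinocyte, fibroblast and muscle markers were all present, with Krt5 between 13.00 and 13.68 on the 4 arrays. Differences below are log2 values of K5-IKKbeta minus wild type, tested with limma and Benjamini-Hochberg adjustment over 13074 genes above a brightness filter; a gene was called at an adjusted p under 0.05. The pools were not said to come from separate cohorts, so p-values measure the spread between these pools.

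All 4 measured immune genes were higher in K5-IKKbeta skin, while 34 of 36 tested standard genes were not called. Over all tested genes 33.9% were called, 23.4% as higher and 10.6% as lower. The median log2 difference was 2.57 over the immune genes, a 5.92-fold rise, and -0.02 over the standard genes, against 0.09 over all tested genes. Since the members were chosen with earlier results of these data known, these counts and medians are descriptions without a test of the lists. Of the 42 members, 40 passed the brightness filter.

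Psmb9, which replaces the caspase-like subunit Psmb6, measured 7.81 and 8.26 in the wild type pools and 11.11 and 11.08 in the K5-IKKbeta pools. The groups lay far apart, with the K5-IKKbeta pools nearly equal. The log2 difference was 3.06 ± 0.16 (SE, n = 2 and 2 arrays), an 8.33-fold rise (limma adjusted p = 9.61e-05). It was the 22nd highest difference among the 13074 tested genes. Psmb8, the counterpart of the chymotrypsin-like subunit Psmb5, measured 8.52 and 8.91 in wild type and 11.86 and 11.60 in K5-IKKbeta skin. Its difference was 3.02 ± 0.16 (SE), 8.10-fold (adjusted p = 0.000109), the next in rank after Psmb9. A second Psmb8 probe set lay within the lowest 25% of each array's probe sets throughout, at 4.08 and 3.75 on the wild type arrays and 4.82 and 5.15 on the others, and gives no usable fold.

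Psmb10, which replaces the trypsin-like subunit Psmb7, measured 8.14 and 8.46 in wild type and 10.52 and 10.31 in K5-IKKbeta skin. It rose less than the other immune catalytic genes in fitted size, by 2.11 ± 0.14 (SE) or 4.33-fold (adjusted p = 0.00024), with a 95% interval of 1.76 to 2.46 that lies below those of Psmb8 (2.62 to 3.41) and Psmb9 (2.67 to 3.45). The differences between these genes were not tested, and probe sets can compress large changes unequally. Psme1, the alpha subunit of PA28, measured 10.34 and 10.55 in wild type and 11.99 and 11.82 in K5-IKKbeta skin, a 2.75-fold rise (log2 difference 1.46 ± 0.12, adjusted p = 0.000488). No wild type pool reached the level of a K5-IKKbeta pool in any of the 4 genes, as was so for 45.2% of all tested genes in that direction.

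**Figure D1:**
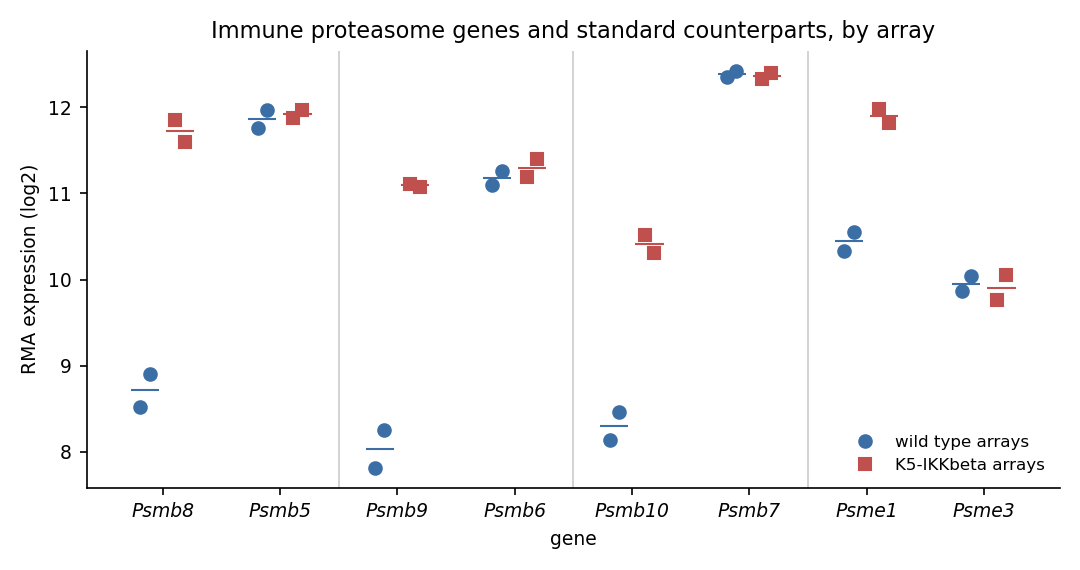
RMA expression (log2) of each immune catalytic gene beside its standard counterpart, and of Psme1 beside Psme3, the gene of another activator. Shown are the 2 wild type arrays (circles) and the 2 K5-IKKbeta arrays (squares), with a line at each mean. Psmb8, Psmb9, Psmb10 and Psme1 stand higher in both K5-IKKbeta arrays, while Psmb5, Psmb6, Psmb7 and Psme3 overlap between genotypes; heights of different genes are not comparable.

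The standard catalytic genes were not called. Psmb5 measured 11.76 and 11.97 in wild type and 11.88 and 11.97 in K5-IKKbeta skin, Psmb6 measured 11.10 and 11.26 against 11.19 and 11.41, and Psmb7 12.35 and 12.43 against 12.33 and 12.40. In each of the 3 genes the groups overlapped. Their log2 differences were 0.06 (95% interval -0.22 to 0.33), 0.11 (-0.18 to 0.41) and -0.02 (-0.26 to 0.21), so a fall of the size at which the immune genes rose lies outside each interval. Within arrays, the balance of each pair therefore shifted with the immune member. Psmb8 relative to Psmb5, set to 0 at the wild type mean, was 3.14 and 2.78 in the K5-IKKbeta pools and -0.09 and 0.09 in the wild type pools. Psmb9 relative to Psmb6 was 3.07 and 2.82, with wild type pools at -0.14 and 0.14. Psmb10 relative to Psmb7 averaged 2.14, with wild type pools at -0.12 and 0.12. These mean shifts correspond to 7.78, 7.70 and 4.40 times the wild type ratio. With 2 arrays against 2 an exact permutation test cannot go below p = 0.333, and none is given for the pairs.

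Pools of the same genotype were not alike in the immune genes. Wild type pool 2 was above pool 1 in 4 of 4 (median difference 0.35), and K5-IKKbeta pool 2 was below pool 1 in 4 of 4 (median difference -0.19). In the standard genes these medians were 0.11 (pool 2 above in 34 of 36) and 0.03 (in 24 of 36), and over all tested genes 0.05 and 0.01. Such gaps within a genotype reached 0.45 in the immune genes, below the smallest rise of 1.46. Over 13 alternative settings, which include leaving out each array, all 4 immune genes remained called as higher, with adjusted p-values of at most 0.00657. Their log2 differences ranged from 1.35 to 1.57 for Psme1, 1.95 to 2.28 for Psmb10, 2.84 to 3.28 for Psmb9 and 2.04 to 3.21 for Psmb8, whose lowest value came from averaging in its dim second probe set.

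Psmb9, Tap1, Psmb8 and Tap2 follow each other in this order in the class II region of the MHC, with no other gene of the RefSeq table lying wholly between the first and the last. All 4 were higher in K5-IKKbeta skin. Tap1, which with Tap2 carries peptides into the endoplasmic reticulum, measured 8.17 and 8.62 in wild type and 10.52 and 10.42 in K5-IKKbeta skin (log2 difference 2.07, adjusted p = 0.000419). Tap2 measured 8.08 and 8.17 against 10.77 and 10.46 (2.49, adjusted p = 9.8e-05). Psmb9 and Tap1, which share the 225 bases shown above between their starts, thus rose by 3.06 and 2.07. The remaining immune genes Psmb10 and Psme1 lie on other chromosomes.

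Of the standard genes, Psmd10 was called as higher and Psmd8 as lower, and 34 were not called. The differences of all 36 tested genes lay between -0.38 and 0.33. For 33 of the 36 the 95% interval lay within a 1.5-fold change in either direction, and for 36 of 36 within a 2-fold change. The lowest interval bound was -0.80, for the ATPase Psmc4, and the highest 0.56, for Psmd10. Intervals are per gene and not adjusted for the number of genes. At an unadjusted p under 0.05, 6 of the 36 passed, against 5775 of 13074 tested genes.

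**Figure D2:**
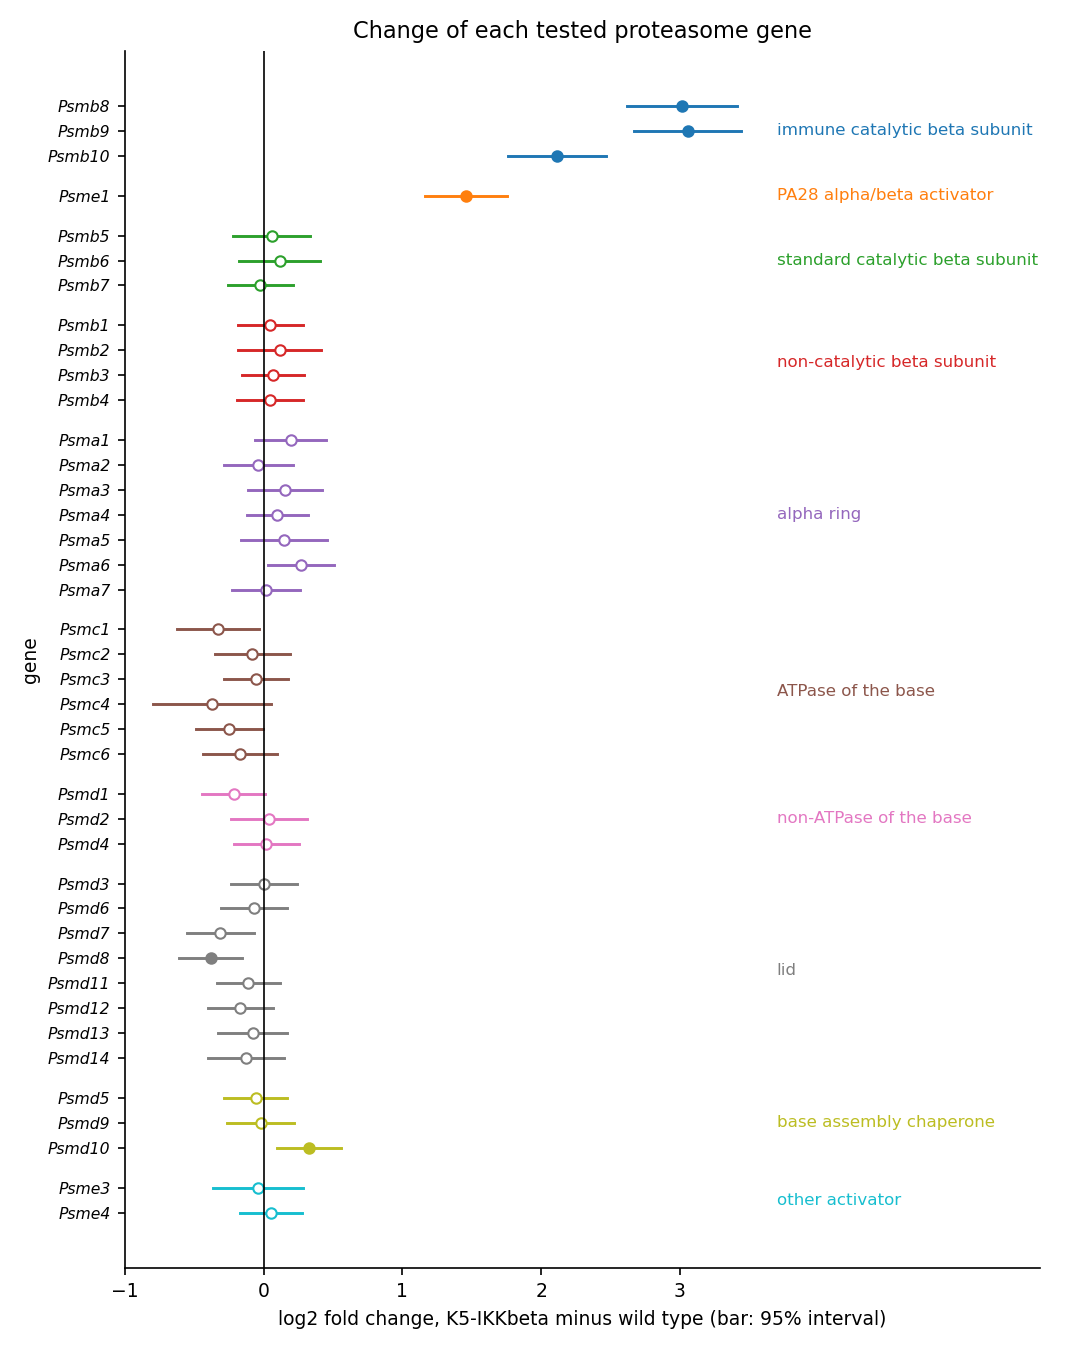
Log2 difference of K5-IKKbeta minus wild type for each of the 40 tested proteasome genes by role, with its 95% interval (bar); filled points have an adjusted p under 0.05. The 4 immune genes lie between 1.46 and 3.06 and the 36 standard genes between -0.38 and 0.33.

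Psmd10, also called gankyrin, is a chaperone of base assembly that carries a proteasome symbol and is no subunit of the finished particle. It measured 8.63 and 8.69 in wild type and 9.02 and 8.95 in K5-IKKbeta skin, a 1.26-fold rise (0.33 ± 0.09, adjusted p = 0.0417). Psmd8, a subunit of the lid, measured 11.70 and 11.72 in wild type and 11.30 and 11.36 in K5-IKKbeta skin, a lower level (-0.38 ± 0.09, adjusted p = 0.0238). In both genes the groups did not overlap, as in 69.5% of all tested genes. Both calls were lost without wild type pool 1 (adjusted p = 0.224 for Psmd10 and 0.126 for Psmd8), without wild type pool 2 (0.153 and 0.144) and without K5-IKKbeta pool 1 (0.104 and 0.0573). The call of Psmd10 was also lost with arrays centred on their median (adjusted p = 0.0654) and with no brightness filter (0.0658). It was lost as well after another quantile normalization (0.0973) and with a replicate block (0.0506). Against a 1.2-fold change neither Psmd10 nor Psmd8 was called (adjusted p = 0.703 and 0.405). The other base chaperones Psmd5 and Psmd9 had differences of -0.06 and -0.02.

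The core and the regulatory particle leaned to different sides by small amounts, a grouping taken up after the values had been seen. Over all 13074 tested genes 7969 differences were positive and 5105 negative. In the alpha ring, which gates entry to the core, 6 of 7 tested genes had a positive difference (median 0.15) and 0 were called. The highest was Psma6, with 11.82 and 11.94 in wild type and 12.15 and 12.15 in K5-IKKbeta skin (0.27, adjusted p = 0.0815); a second bright probe set of Psma6 gave 0.36 (adjusted p = 0.0685 over all probe sets). It was called in 3 alternatives: with the mean of its probe sets (0.34, adjusted p = 0.0275), with shared-sequence probe sets left out (0.36, adjusted p = 0.0284) and with a trended, robust variance prior (adjusted p = 0.046). The 7 standard beta subunits, structural and catalytic, had 6 positive differences and a median of 0.06, with 0 called. Together 12 of 14 standard core genes were positive, at a median of 0.08, close to the 0.09 of all tested genes.

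In the regulatory particle 14 of 17 tested genes had a negative difference, at a median of -0.13, against 5105 of all 13074 tested genes. In 11 of the 17 both K5-IKKbeta pools lay below both wild type pools, which was so for 24.3% of all tested genes. All 6 ATPases, the motor that unfolds substrates, were negative (median -0.21) and 0 were called. Psmc4 was the most negative of them and read 11.05 and 11.11 in wild type and 10.45 and 10.96 in K5-IKKbeta skin, with the K5-IKKbeta pools as far apart as 0.51. Its difference of -0.37 (adjusted p = 0.151) became -0.63 (adjusted p = 0.00471) without K5-IKKbeta pool 2, and a second probe set read -0.08 with all arrays. Psmc1 had -0.33 (adjusted p = 0.0822) and Psmc5 -0.25 (adjusted p = 0.105). Both were called as lower after another quantile normalization (adjusted p = 0.0293 and 0.0381), and Psmc1 also without K5-IKKbeta pool 2 (0.0382) and with a replicate block (0.04).

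In the lid, which holds the deubiquitinase Psmd14, 7 of 8 genes were negative (median -0.12), and apart from Psmd8 none was called; Psmd7, the partner of Psmd14, had -0.31 (adjusted p = 0.0558). Psmd7 was called as lower in 4 alternatives: the stricter filter (adjusted p = 0.043), another quantile normalization (0.0219), median centring (0.0407) and the trended, robust prior (0.036). A dimmer probe set of Psmd7 above the filter gave 0.02 (adjusted p = 0.943 over all probe sets). It read 7.80 and 7.87 in wild type and 7.89 and 7.82 in K5-IKKbeta skin. Psmd14 itself had -0.13, with 11.94 and 12.17 in wild type and 11.93 and 11.93 in K5-IKKbeta skin. Of the base subunits without ATPase activity, the ubiquitin receptor Psmd4 had 0.02, the scaffold Psmd2 0.04 and Psmd1 -0.22 (adjusted p = 0.124). The lean of the regulatory particle held in sign under each of the 13 alternatives, with 14 to 17 of 17 genes negative and medians of -0.07 to -0.22. That of the core did not hold as firmly: 9 to 14 of 14 genes were positive with the filter kept, and 9 of 14 after another quantile normalization or without wild type pool 1. The contrast between core and regulatory particle, chosen from these values, was not tested.

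**Figure D3:**
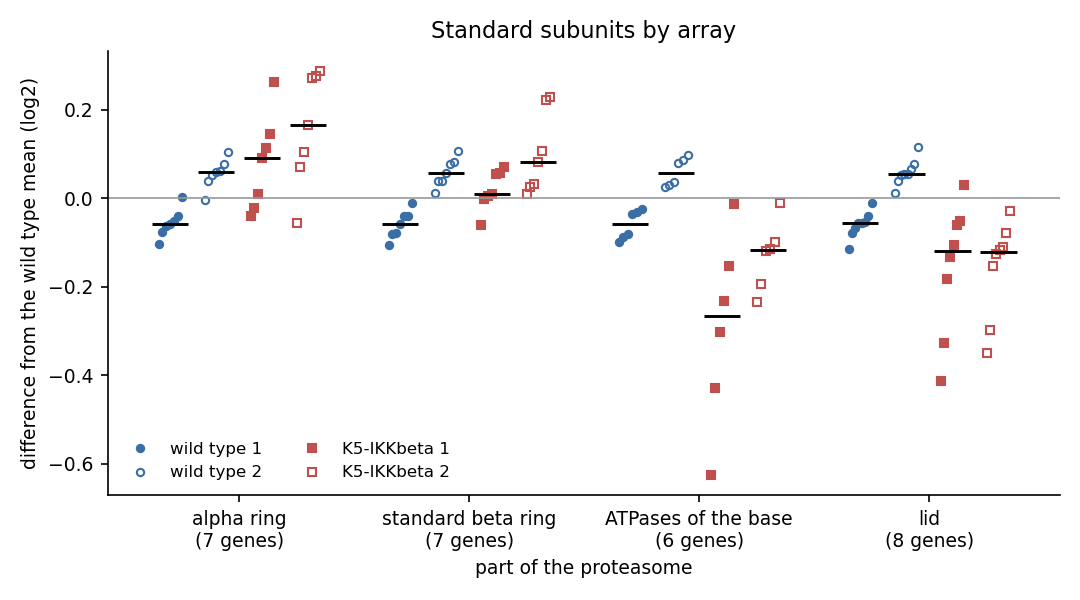
Log2 difference of each standard gene from its wild type mean in the 4 arrays (circles wild type, squares K5-IKKbeta; filled for pool 1, open for pool 2), with lines at the medians. Median values in the K5-IKKbeta pools were 0.09 and 0.17 in the alpha ring, 0.01 and 0.08 in the standard beta ring, -0.27 and -0.12 in the ATPases and -0.12 and -0.12 in the lid, against -0.06 and 0.06 in the wild type pools of each.

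The other activators did not pass the test, and their difference from Psme1 was not tested. Psme3, which forms the PA28 gamma ring of the nucleus, measured 9.86 and 10.04 in wild type and 9.77 and 10.05 in K5-IKKbeta skin (-0.04, 95% interval -0.37 to 0.28), and Psme4, the PA200 activator, measured 11.32 and 11.27 against 11.34 and 11.35 (0.05, 95% interval -0.17 to 0.27). Both intervals lie below that of Psme1 (1.16 to 1.75). Psmb11, the catalytic subunit of thymic epithelium, lay between 5.02 and 5.49 on the 4 arrays, and Psma8, the alpha subunit of testis, between 4.47 and 4.89. Both were under the brightness filter of 6.33 and were not tested.

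For 22 of the 42 members the array held further probe sets. Of 31 such probe sets above the filter, 20 gave a difference of the same sign as the brightest and 11 the opposite sign, and 0 of the 11 passed the threshold over all probe sets, where 16.3% of all probe sets were called. Of all 88 probe sets of the members, 5 were called at that level: the brightest of each immune gene and the dim one of Psmb8.

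Of 6 tested chaperones and maturation factors of the proteasome 1 was higher and 1 lower, a share close to the 33.9% of all tested genes. Psmg4, a chaperone of alpha ring assembly, rose by 0.63 (adjusted p = 0.00842), and Akirin2, which guides proteasomes into the nucleus, fell by 0.47 (adjusted p = 0.0118). Neither call held against a 1.2-fold change (adjusted p = 0.0512 and 0.145). Both calls were lost without wild type pool 1 (adjusted p = 0.0516 and 0.0666) and without wild type pool 2 (0.0687 and 0.0994). Pomp, needed to mature both standard and immune cores, measured 11.41 and 11.43 in wild type and 11.60 and 11.61 in K5-IKKbeta skin (0.18, adjusted p = 0.188).

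Of 12 proteins that bind the proteasome and passed the brightness filter, 1 was called as lower, against 10.6% of all tested genes. Ubd passed the filter through its K5-IKKbeta arrays alone, so that its difference is a description. Ubd, a ubiquitin-like protein that delivers its targets to the proteasome, measured 4.77 and 4.34 in wild type, within the lowest 25% of probe sets, and 9.45 and 9.18 in K5-IKKbeta skin, at least 15.7-fold higher against that floor. The deubiquitinase Usp14 read 10.51 and 9.95 against 9.28 and 9.27 (-0.95, adjusted p = 0.0104), a call lost with the mean of all its probe sets (-0.26, adjusted p = 0.0763) and with shared-sequence probe sets left out (-0.17, adjusted p = 0.446). Of 6 tested factors linked to control of standard subunit genes, Nfe2l1, the activator of proteasome genes when proteasome activity falls short, rose by 0.89 (10.24 and 10.25 against 11.23 and 11.03, adjusted p = 0.00187) and Maf fell by 0.96 (adjusted p = 0.00427). The other 4 were not called, among them Nfe2l2 (0.14), Mafg (0.23) and Mafk (0.10). With 1 gene higher and 1 lower of 6, the share called was close to the 33.9% of all tested genes. Whether Maf acts on the standard subunit genes here was not tested.

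Genes upstream of the immune subunits were higher. All 8 tested genes of interferon-gamma signalling and its transcription factors rose (median 1.32), from the receptor chains Ifngr1 (0.95) and Ifngr2 (0.96) and the kinases Jak1 (0.91) and Jak2 (1.33) to the factors Irf1 (1.85), Irf8 (1.32) and Irf9 (1.47) and the class I activator Nlrc5 (2.20), with limma adjusted p-values of at most 0.00427. Irf1, which binds promoters of immune subunit genes, measured 9.07 and 9.06 in wild type and 11.21 and 10.61 in K5-IKKbeta skin. Among 11 tested genes of class I peptide supply and loading 8 rose, Tap1 and Tap2 included, and 0 fell (median 1.29). The loading bridge Tapbp rose by 1.79 and the class I chain H2-K1 by 1.45, while the general chaperones Canx (0.28, adjusted p = 0.128), Calr (0.23, adjusted p = 0.111) and Pdia3 (0.21, adjusted p = 0.169) were not called, although Canx was without K5-IKKbeta pool 1 (0.42, adjusted p = 0.0325). These lists were chosen with earlier results known, and their counts stand beside the 23.4% of all tested genes called as higher.

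**Figure D4:**
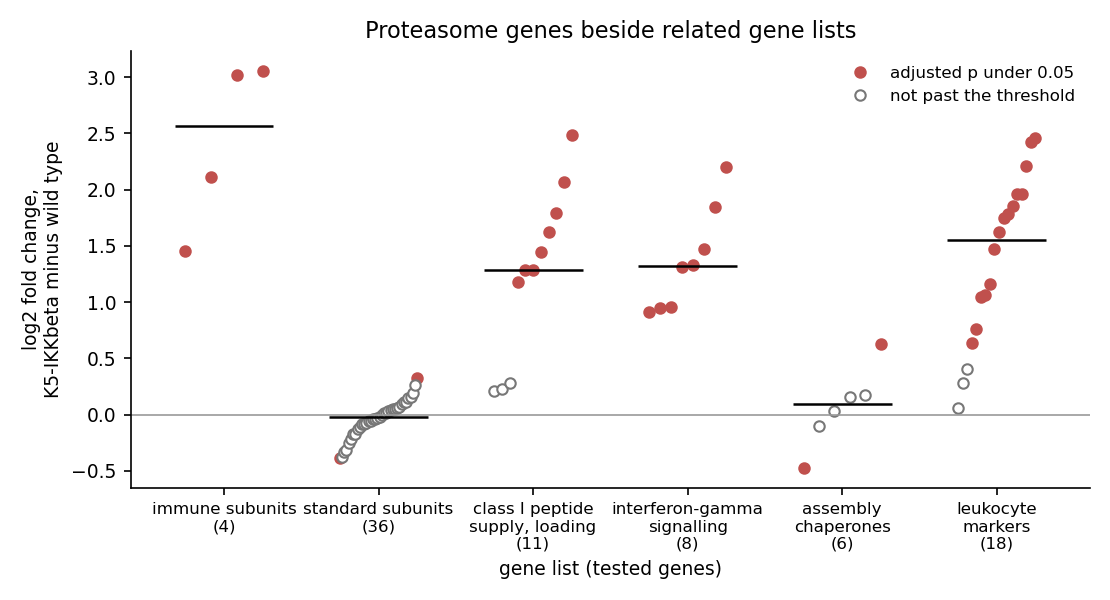
Log2 difference of K5-IKKbeta minus wild type for the tested genes of 6 lists, each ordered by value, with filled points at an adjusted p under 0.05 and a line at the median. Medians were 2.57 for immune and -0.02 for standard subunits, 1.29 for class I supply and loading, 1.32 for interferon-gamma signalling, 0.10 for assembly chaperones and 1.55 for leukocyte markers.

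Most leukocyte markers were also higher in K5-IKKbeta skin. Of 18 tested markers of leukocytes, macrophages, dendritic, T cells and neutrophils 15 rose and 0 fell, with a median of 1.55. Some of these calls did not hold under the alternatives. Laptm5 (1.62) lost its call with shared-sequence probe sets left out (0.28, adjusted p = 0.159). Cd68 and Cd3d lost theirs against a 1.2-fold change (adjusted p = 0.0692 and 0.0593). Counts of called markers, here and for the cell types below, stand beside the 23.4% of all tested genes called as higher. Ptprc, the pan-leukocyte phosphatase CD45, measured 8.27 and 8.48 in wild type and 10.30 and 10.37 in K5-IKKbeta skin (1.96, adjusted p = 0.000126), and Cd52 rose by 2.42. The called markers with the largest rise in each list were Mpeg1 (1.86, macrophages), Itgax (1.96, dendritic cells), Thy1 (1.48, T cells) and S100a9 (2.46, neutrophils). Thy1 read 9.71 and 9.73 in wild type and 10.94 and 11.46 in K5-IKKbeta skin. Cd3g, at 6.33 and 6.61 against 7.75 and 7.52, rose by 1.17 and Cd3d by 0.63. Which cells the RNA of Thy1 and S100a9 came from was not tested. The other tested neutrophil marker, S100a8, overlapped between genotypes and was not called (0.06, adjusted p = 0.732). Neither were Flt3 of the dendritic list (0.28, adjusted p = 0.12) and Cd3e of the T cell list (0.40, adjusted p = 0.112). The summed level of the 22 leukocyte markers with a probe set, on the linear RMA scale, was 6701 to 6808 in wild type and 16272 to 16890 in K5-IKKbeta skin. The B cell genes Cd79a, Cd79b and Ms4a1 and the T cell gene Cd2 were under the brightness filter, and no marker reads 0 on this scale. Keratinocyte markers rose in part, with Krt1 at 1.66 and the basal keratins Krt5 and Krt14 at 0.49 and 0.53, calls that were lost without wild type pool 1 (adjusted p = 0.085 and 0.0935), wild type pool 2 (0.153 and 0.152) or K5-IKKbeta pool 1 (0.0568 and 0.0541). Against a 1.2-fold change Krt5 and Krt14 were not called either (adjusted p = 0.209 and 0.188). Markers of skeletal muscle were higher too, with 3 of 4 called and a median of 0.89. Tnnt3, a fast muscle troponin, rose by 1.17 (adjusted p = 0.00105), Ckm by 0.87 and Acta1 by 0.54. The call of Acta1 was lost without wild type pool 1 (adjusted p = 0.0507), without wild type pool 2 (0.0615) and against a 1.2-fold change (0.0588). Of the 3 fibroblast markers 1 was called, Dcn with a rise of 0.70 (adjusted p = 0.00778), which was lost without wild type pool 2 (0.0604). The part of leukocyte content, and of the other cell types, in the rise of the immune subunits was not tested. In RNA of whole skin, more cells of a type and more RNA per cell cannot be told apart.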

How the data were processed

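RNA of back skin was measured in 4 samples, 2 per genotype, each from a pool of 3 mice. The deposited values are log2 RMA expression values per probe set; RMA is named in the submitters' processing notes without version, and log2 was taken from the range of 2.65 to 14.7. Which software, build and annotation served is not given in the sources used here. RMA compresses large changes, and the few arrays limit the precision.

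Gene names come from the platform annotation, which gives 1 symbol for 34958 of 45101 probe sets, several for 932 and none for 9211; 34754 matched the RefSeq gene table (GRCm38.p6, used for names and neighbours) and 0 symbols changed. The brightest probe set stood for a gene, and genes in the lower 40% of all probe sets by mean level were left out. The groups were compared by linear models with moderated variances (limma 3.58.1, R 4.3.3; two-sided, Benjamini-Hochberg over all tested genes), checked on simulated data. Promoter windows were matched by symbol for 35 of 42 members. A fold for a group within the lowest 25% of probe sets is a bound against that percentile.

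Members and gene lists were chosen with earlier results of these data known, and the final forms of the motifs after their matches had been seen. Named were all members the text describes by role or call, and of each other list up to 4 members past the threshold, mostly those with the largest change; other list genes (Pomp, Nfe2l2, Irf9 and the like) were added after their values were seen. Alternatives were no filter, a stricter filter at 60%, probe sets averaged per gene, shared-sequence probe sets left out, another quantile normalization, median centring, a trended robust prior, a test against a 1.2-fold change, a replicate block, and each array left out.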

Additional observations from a re-analysis of the deposited data

How the results depend on the processing

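The 4 immune genes were called as higher under each of the 13 alternatives, and their median difference changed by more than the spread between replicates in 1, the mean of all probe sets (2.08 in place of 2.57). Of 520 values of single members under the alternatives, 496 kept their call, 12 lost it and 12 gained it, and 0 called values changed sign. The 2 standard genes called became 1 with no filter on dim probe sets, 4 after another quantile normalization (all lower), 4 with a trended robust prior, and 0 against a 1.2-fold change; with an array left out they ranged from 0 to 4, with 0 without wild type 1, wild type 2 or K5-IKKbeta 1 and 4 without K5-IKKbeta 2. The median over the standard genes stayed between -0.08 and 0.04. The 4436 genes called overall became 2348 against a 1.2-fold change, and 2253 to 4640 with an array left out, 2379 without wild type 1 and 2253 without wild type 2. With an array left out, the probe sets and genes of the full data were kept, a choice made after picking them anew had been tried and its counts seen. Leaving out an array leaves 1 sample in a group, which is assumed to vary like the other. The replicate numbers are not stated to pair samples (deviations of same-numbered arrays correlated at 0.25 across genes); with the number as a replicate block 4553 genes, 4 immune and 2 standard genes were called, with medians of 2.57 and -0.02. In that fit Psmd10 lost its call (adjusted p = 0.0506) and Psmc1 gained it (-0.33, adjusted p = 0.04). The cause of these changes was not tested.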
